A study of Mus musculus with 10 samples.

Results

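The 10 genes described here mark liver endothelium: Stab1, Stab2, Lyve1 and Fcgr2b are genes of the liver sinusoid, Kdr, Pecam1 and Cdh5 are general endothelial genes, and Vwf, Plvap and Cd34 are genes of larger or capillarised vessels. They were taken by name, as the gene models of the deposited table that carry one of these 10 symbols. The 10 symbols were chosen with earlier results of these data known. Each symbol matched 1 of the 59408 gene models, and all 10 passed the filter on low values that left 18390 genes for testing. Messenger RNA of whole livers from 10 C57BL/6 wild type mice was sequenced, and every liver was taken at day 35. The PBC group (3 livers, numbered 7, 8 and 9) models primary biliary cholangitis. These mice received 100 µg of 2-octynoic acid coupled to bovine serum albumin into the peritoneum with Freund's adjuvant, complete at day 0 and incomplete at days 14 and 28. They also received 2 µg of α-galactosylceramide, which activates NKT cells as a glycolipid antigen, intravenously with the first pair of injections. The PSC group (3 livers, numbered 11, 13 and 14) models sclerosing cholangitis and ate the bile duct toxicant DDC (3,5-diethoxycarbonyl-1,4-dihydrocollidine) at 0.089% of the diet for 2 weeks and again for 1 week after 1 week of recovery. The control group (4 livers, numbered 1 to 4) was untreated and received neither adjuvant nor glycolipid, so PBC against control compares the antigen together with its adjuvant and glycolipid. The sources used here name no sex, age or batch.

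The liver sinusoid is lined by a thin, fenestrated endothelium without a continuous basement membrane, which clears waste macromolecules and immune complexes from portal blood through scavenger and Fc receptors. In chronic liver injury of several kinds this lining can lose its fenestrae, lay down a basement membrane and take on markers of ordinary capillaries, a change known as capillarisation. Stabilin and Fc receptor genes therefore serve as sinusoidal markers, while von Willebrand factor, CD34 and basement membrane collagens serve as markers of capillarised or larger vessels. Several of these genes have other sources in a liver: Stab1 is also made by some macrophages, Fcgr2b by B cells and macrophages, Vwf by megakaryocytes, and Cd34 by blood progenitors and some fibroblasts.

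On mm10, as the deposited table gives them, the sinusoidal genes lie on 4 chromosomes. Stab1 (GSMG0012178, minus strand) spans positions 31139013 to 31168641 of chromosome 14, Stab2 (GSMG0004422, minus) positions 86841203 to 87008023 of chromosome 10, Lyve1 (GSMG0036523, minus) positions 110850603 to 110863059 of chromosome 7 and Fcgr2b (GSMG0002439, minus) positions 170960567 to 170976547 of chromosome 1. Among the general endothelial genes, Kdr (GSMG0030642, minus) spans positions 75932837 to 75978461 of chromosome 5, Pecam1 (GSMG0007522, minus) positions 106654213 to 106750629 of chromosome 11 and Cdh5 (GSMG0037685, plus) positions 104101625 to 104144502 of chromosome 8. Among the vascular genes, Vwf (GSMG0032492, plus) spans positions 125532586 to 125686679 of chromosome 6, Plvap (GSMG0038580, minus) positions 71497754 to 71511769 of chromosome 8 and Cd34 (GSMG0001261, plus) positions 194938821 to 194961292 of chromosome 1.

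RefSeq promoter windows on GRCm38.p6 (250 bases before to 50 after the annotated start) were at hand for 5 of the 10 genes: Stab1, Stab2, Fcgr2b, Kdr and Cd34. Those of Stab1, Stab2 and Kdr are shown because Stab1 passed the test in both models and its paralogue Stab2 in neither, and because Kdr was the single gene of the 10 that was lower in a cholangitis model than in controls. All 3 are on the minus strand and are written 5′ to 3′ along the gene. Capitals mark the letters AGGAAG or their reverse complement CTTCCT, a core bound by ETS factors, the family of the endothelial regulator Erg.
Stab1, chr14:31168592-31168891: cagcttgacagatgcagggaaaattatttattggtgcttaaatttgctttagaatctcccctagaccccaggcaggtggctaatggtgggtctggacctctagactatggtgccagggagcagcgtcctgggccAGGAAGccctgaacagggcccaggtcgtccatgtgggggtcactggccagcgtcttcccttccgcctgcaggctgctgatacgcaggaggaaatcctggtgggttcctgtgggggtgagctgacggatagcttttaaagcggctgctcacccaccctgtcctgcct
Stab2, chr10:87007893-87008192: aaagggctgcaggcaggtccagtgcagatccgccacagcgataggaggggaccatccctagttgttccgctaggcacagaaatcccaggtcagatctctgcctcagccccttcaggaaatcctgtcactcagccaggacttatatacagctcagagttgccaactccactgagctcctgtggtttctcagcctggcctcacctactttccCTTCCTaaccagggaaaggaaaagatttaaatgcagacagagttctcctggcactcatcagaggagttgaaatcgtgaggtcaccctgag
Kdr, chr5:75978406-75978705: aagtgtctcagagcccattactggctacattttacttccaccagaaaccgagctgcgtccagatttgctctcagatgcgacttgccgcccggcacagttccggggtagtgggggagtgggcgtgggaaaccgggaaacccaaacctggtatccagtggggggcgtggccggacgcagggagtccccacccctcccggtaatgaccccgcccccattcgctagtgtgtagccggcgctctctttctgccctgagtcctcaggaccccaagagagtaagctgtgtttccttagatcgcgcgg
The ETS letters, searched on both strands, occurred once in the Stab1 window, starting 116 bases before the annotated start, and once in the Stab2 window, starting 40 bases before it. They occurred once in the Cd34 window and 0 times in those of Kdr and Fcgr2b, while 35.4% of 32851 RefSeq promoter windows of the same length held them. The letters AGATAA or TTATCT, a core bound by GATA factors, were in 0 of the 5 windows and in 11.2% of all windows. A match is a run of letters and no measurement of binding.

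The values are reads per gene model that the authors normalised with DESeq2. Reads recovered from them ran from 44.3 to 51.1 M (mega) reads in PBC livers, from 55.3 to 95.4 M in PSC livers and from 38.3 to 69.4 M in controls. Each fold change is a log2 fold change of (normalised reads + 1) with its SE, from 1 limma fit over all 10 livers, and a change passed the test at a Benjamini-Hochberg adjusted p under 0.05 over all 18390 genes. The livers are separate mice by their labels. In whole liver RNA, fewer endothelial cells and less of an RNA per cell cannot be told apart.

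Some livers lay at an end of their group for most of the 10 genes. PBC 8 held the highest PBC value for 7 of the 10, PSC 14 the highest PSC value for 7 and control 4 the highest control value for 8. PSC 11 held the lowest PSC value for 7 of the 10 and control 3 the lowest control value for 6. The spread was widest for Kdr in PBC, where the highest value was 4.94 times the lowest, followed by Cd34 at 4.30 times, Lyve1 at 4.26 times and Cdh5 at 3.90 times. In PSC livers the Kdr values were within 1.06 times of each other. PBC 8 and control 4 were also left out together. Where leaving out a liver altered a call of the 10 genes, the value is given beside it.

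Per kilobase of GENCODE exon sequence, Plvap was the most abundant of the 10 genes in controls, with 949.8 ± 330.3 normalised reads per kilobase (SD, n = 4), followed by Fcgr2b with 417 ± 132. Pecam1 (135 ± 38.5), Stab1 (123 ± 19.8) and Cdh5 (118 ± 61.7) followed with overlapping ranges. Lyve1 had 59.7 ± 30.1 normalised reads per kilobase in controls, Kdr 24.0 ± 15.1 and Cd34 16.4 ± 6.70. Stab2 (10.3 ± 2.12) and Vwf (6.37 ± 2.83) were the least abundant. The stabilin pair thus differed in level, Stab1 having 211.7 ± 41.6, 223 ± 21.3 and 123 ± 19.8 normalised reads per kilobase in PBC, PSC and control livers where Stab2 had 12.6 ± 3.69, 11.6 ± 3.15 and 10.3 ± 2.12.

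**Figure D1:**
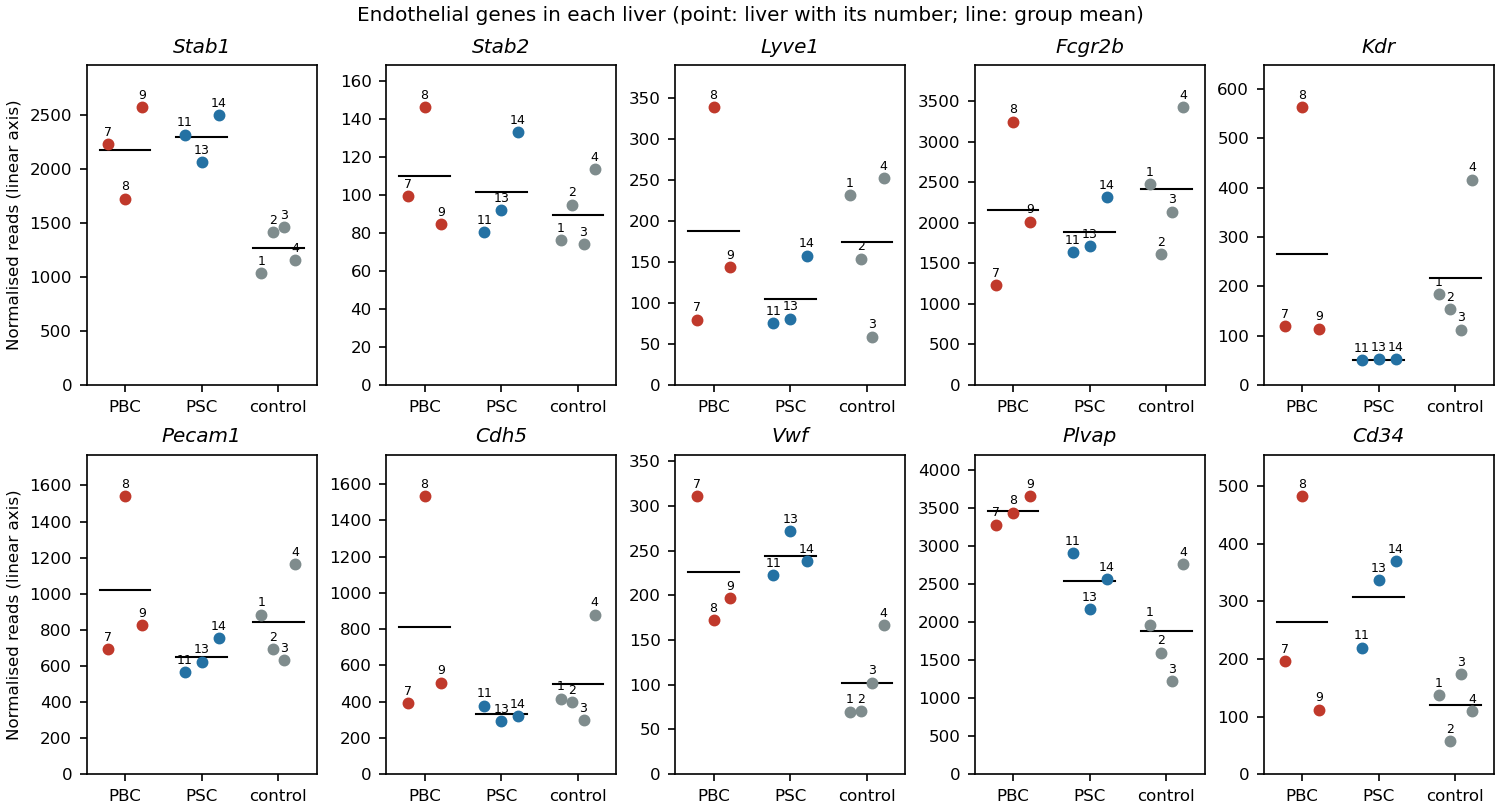
Normalised reads of the 10 endothelial genes in each liver, on linear axes that start at 0, with PBC, PSC and control livers from left to right. Each point is a liver with its number and each line a group mean; Stab1 and Vwf lie above every control in both models, Kdr lies between 49.7 and 52.6 in PSC, and PBC 8 and control 4 lie at the top of their groups for most genes.

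PBC livers were compared with untreated livers to ask how the autoimmune model altered the lining of the liver vessels. Of the 10 genes, 3 were higher in PBC livers: Stab1, Vwf and Plvap. With limma, edgeR or DESeq2 0 were lower, and 0 were lower at an unadjusted p under 0.05 in the limma fit. Over all tested genes, 9.94% passed the test, 7.6% higher and 2.34% lower. The median fold change of the 10 genes was 0.42, against 0.01 over all tested genes. The groups did not overlap for 3 of the 10, the same 3, beside 19.6% of all tested genes.

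PSC livers were compared with the same 4 untreated livers. Here 2 of the 10 were higher, Stab1 and Vwf, and 1 was lower, Kdr, beside 14.7% of all tested genes, 8.25% higher and 6.48% lower. The median was -0.07, against 0.06 over all tested genes. The groups did not overlap for 4 of the 10 (Stab1, Kdr, Vwf and Cd34), beside 31.5% of all tested genes.

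Between the 2 models, 0 of the 10 passed the test with limma or with edgeR, and 1, Kdr, did with DESeq2. Of the 10, 2 had an unadjusted p under 0.05 in the limma fit, Kdr and Cdh5. Over all tested genes, 2.24% passed the test, 1.11% higher in PBC than in PSC and 1.13% lower. The groups did not overlap for Kdr, Cdh5 and Plvap, 3 of the 10, beside 27.2% of all tested genes. The comparisons with control share their 4 control livers. An exact two-sided permutation test over livers, run for each gene and comparison, can give no p below 0.0571 against control or 0.1 between the models, and 0.245 was the smallest value after adjustment over its 30 tests.

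**Figure D2:**
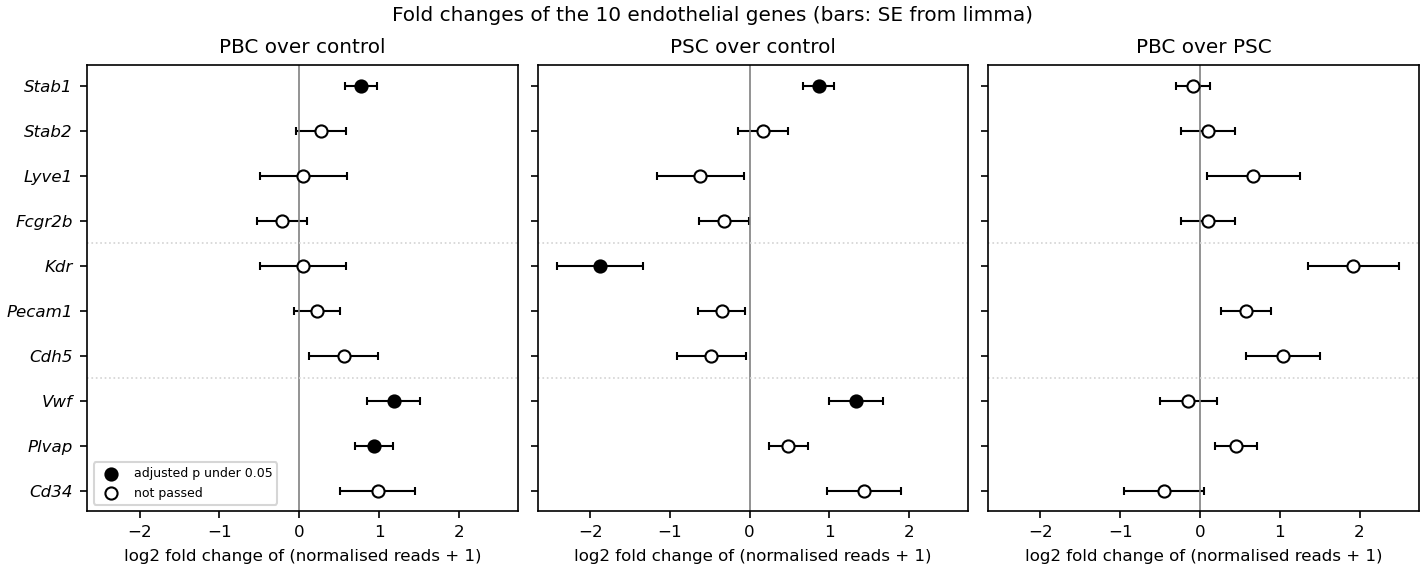
Log2 fold changes of (normalised reads + 1) for the 10 genes in PBC over control, PSC over control and PBC over PSC, with bars for the SE from limma. Filled points passed an adjusted p of 0.05; Stab1 and Vwf are filled and positive against control in both models, Plvap in PBC over control, and Kdr is filled and negative in PSC over control.

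Stab1 encodes stabilin-1, a scavenger receptor that takes up modified lipoproteins and matrix fragments. Stab1 had 2233, 1725 and 2575 normalised reads in PBC livers 7, 8 and 9, 2319, 2062 and 2498 in PSC livers 11, 13 and 14, and 1038, 1413, 1461 and 1156 in controls 1 to 4. Every liver of both models lay above the highest control. Stab1 was higher by 0.78 (SE 0.20, 95% interval 0.35 to 1.21, adjusted p = 0.0279) in PBC than in control livers. The PSC over control log2 fold change was 0.86 (SE 0.20, 95% interval 0.44 to 1.29, adjusted p = 0.0126). PBC and PSC livers overlapped, with a log2 fold change of -0.09 (95% interval -0.55 to 0.37, adjusted p = 0.849). Left out one at a time, control 1, control 4, PBC 7 and PBC 9 took the adjusted p in PBC over control to 0.0816, 0.0539, 0.0905 and 0.136, and leaving out PSC 11 or PSC 14 took that in PSC over control to 0.0509 or 0.0779. With only PBC and control livers fitted, the PBC value was 0.0784. Without both PBC 8 and control 4 the PBC change was 0.90 (adjusted p = 0.0142).

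Of 10 Kupffer cell markers, 9 were higher in PBC and 4 in PSC than in control livers, and 0 were lower. Their summed level ran from 171831 to 239059 normalised reads in PBC livers, from 120382 to 155350 in PSC livers and from 50285 to 80697 in controls, and none of the 10 was at 0 in any liver. The 4 markers higher in PSC were C1qa, C1qb, C1qc and Marco, while Clec4f, Vsig4, Timd4, Cd5l, Adgre1 and Csf1r did not pass there. Timd4 was the single marker with a negative log2 fold change in PSC over control, -0.65 (adjusted p = 0.215). Marco lost its PSC call with edgeR (adjusted p = 0.05365). The part of the cells with these markers in the Stab1 result was not tested.

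Stab2 encodes stabilin-2, the main hyaluronan clearance receptor of the sinusoid, and it did not pass the test in any comparison. Stab2 had 99.5, 147 and 84.6 normalised reads in PBC livers 7, 8 and 9, 80.7, 92.2 and 133 in PSC livers 11, 13 and 14, and 76.4, 95.0, 74.1 and 114 in controls 1 to 4. The 3 groups overlapped. The 95% intervals of its log2 fold change ran from -0.41 to 0.96 in PBC over control and from -0.51 to 0.85 in PSC over control.

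Lyve1 encodes a hyaluronan receptor of sinusoidal and lymphatic endothelium. Lyve1 had 79.6, 339 and 144 normalised reads in PBC livers 7, 8 and 9, 75.0, 80.9 and 158 in PSC livers 11, 13 and 14, and 232, 154, 58.8 and 253 in controls 1 to 4. All 3 groups overlapped, and the lowest value was in control 3. The log2 fold change was 0.05 (SE 0.55, adjusted p = 0.966) in PBC over control and -0.62 (SE 0.55, adjusted p = 0.482) in PSC over control. Without PBC 8 the first was -0.50 (adjusted p = 0.565).

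Fcgr2b encodes the inhibitory Fc receptor, which clears immune complexes in the sinusoid. Fcgr2b had 1231, 3245 and 2012 normalised reads in PBC livers 7, 8 and 9, 1634, 1713 and 2316 in PSC livers 11, 13 and 14, and 2478, 1611, 2136 and 3428 in controls 1 to 4. The groups overlapped throughout, with PBC 8 and control 4 near each other at the top. The log2 fold change was -0.21 (SE 0.31, adjusted p = 0.707) in PBC over control and -0.32 (SE 0.31, adjusted p = 0.534) in PSC over control. Its level is uncertain because 2.71% of its stretches of 75 bases, the length of a read, also occur in other transcripts, chiefly those of Fcgr3. B cell markers summed to 1219 to 1693 normalised reads in PBC livers, 308 to 442 in PSC livers and 499 to 771 in controls. Of 5 tested B cell markers, 2 were higher in PBC and 2 lower in PSC than in control livers, and their part in the Fcgr2b values was not tested.

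Kdr encodes VEGFR2, the main signalling receptor for VEGF-A on endothelium. Kdr had 119, 564 and 114 normalised reads in PBC livers 7, 8 and 9, 49.7, 51.8 and 52.6 in PSC livers 11, 13 and 14, and 184, 154, 112 and 416.5 in controls 1 to 4. All 3 PSC livers lay below every control and every PBC liver, while PBC and control livers overlapped. Kdr was lower by -1.87 (SE 0.54, 95% interval -3.03 to -0.72, adjusted p = 0.0337) in PSC than in control livers. In PBC over control the log2 fold change was 0.05 (SE 0.54, 95% interval -1.11 to 1.20, adjusted p = 0.966), and -0.70 (adjusted p = 0.279) without PBC 8. In PBC over PSC it was 1.92 (SE 0.57, 95% interval 0.69 to 3.16, adjusted p = 0.106), and 2.34 with an adjusted p of 0.00337 in DESeq2.

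The lower Kdr level in PSC lost its call in several alternatives. Left out one at a time, control 1, control 2 and control 4 took the adjusted p to 0.0675, 0.0517 and 0.0778, and PSC 11, 13 and 14 took it to 0.0976, 0.0868 and 0.106, with the log2 fold change staying negative in each. Scaling every library to the same total gave 0.0627. Without both PBC 8 and control 4 the log2 fold change was -1.50 (adjusted p = 0.00447).

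Pecam1 encodes CD31, an adhesion molecule of endothelial junctions that platelets and leukocytes also carry. Pecam1 had 691, 1541 and 825 normalised reads in PBC livers 7, 8 and 9, 565, 623 and 753 in PSC livers 11, 13 and 14, and 885, 692, 634 and 1165 in controls 1 to 4. The groups overlapped, and PBC 8 was the highest liver of all. The log2 fold change was 0.22 (SE 0.29, adjusted p = 0.665) in PBC over control and -0.35 (SE 0.29, adjusted p = 0.446) in PSC over control. Without PBC 8 the first was -0.12 (adjusted p = 0.788).

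Cdh5 encodes VE-cadherin, the adherens junction cadherin of endothelial cells. Cdh5 had 393, 1533 and 504 normalised reads in PBC livers 7, 8 and 9, 377, 291 and 319 in PSC livers 11, 13 and 14, and 416, 397, 299 and 879 in controls 1 to 4. PSC livers lay below all 3 PBC livers and overlapped the controls. The log2 fold change was 0.56 (SE 0.43, adjusted p = 0.446) in PBC over control, -0.48 (SE 0.43, adjusted p = 0.493) in PSC over control and 1.04 (SE 0.46, adjusted p = 0.252) in PBC over PSC. Without PBC 8 it was -0.04 (adjusted p = 0.956) in PBC over control.

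Vwf encodes von Willebrand factor, which binds platelets at sites of vessel injury and is stored in endothelium of larger vessels and in megakaryocytes. Vwf had 311, 172 and 197 normalised reads in PBC livers 7, 8 and 9, 222, 272 and 238 in PSC livers 11, 13 and 14, and 70.0, 70.6, 102 and 167 in controls 1 to 4. Every liver of both models lay above the highest control, control 4, by a small margin in PBC 8. Vwf was higher by 1.19 (SE 0.34, 95% interval 0.46 to 1.91, adjusted p = 0.0409) in PBC than in control livers. The PSC over control log2 fold change was 1.34 (SE 0.34, 95% interval 0.61 to 2.06, adjusted p = 0.0192). PBC and PSC livers overlapped, with a log2 fold change of -0.15 (95% interval -0.92 to 0.62, adjusted p = 0.849).

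The Vwf call in PBC was close to the threshold. Left out one at a time, controls 1, 2 and 3 gave adjusted p-values of 0.105, 0.0774 and 0.0637, PBC 7 and PBC 9 gave 0.162 and 0.0987, and PSC 11, 13 and 14 gave 0.0589, 0.0612 and 0.063. The call also ended without a filter on low values (adjusted p = 0.0624), with equal totals (0.0754) with edgeR (0.0576) and with only PBC and control livers fitted (0.108), and DESeq2 kept it (0.0204). In PSC over control, leaving out control 1, PSC 11, PSC 13 or PSC 14 gave adjusted p-values of 0.0573, 0.0547, 0.0746 and 0.0762.

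Of 7 tested megakaryocyte and platelet markers, 5 were higher in PBC and 3 in PSC than in control livers. Their summed level ran from 1195 to 3185 normalised reads in PBC livers, from 1019 to 1312 in PSC livers and from 407 to 600.3 in controls. Pf4, a platelet chemokine, was higher in PBC by 1.73 (adjusted p = 0.00408) and in PSC by 2.06 (adjusted p = 0.00111). Its means were 531 normalised reads in PBC and 638 in PSC. Ppbp and Gp9 had higher means in PBC than in PSC, 555 against 152 and 153 against 34.6. Ppbp was higher than in control by 3.89 in PBC and 2.09 in PSC, and Gp9 by 4.07 and 2.07. Both PSC calls were lost without PSC 11 or PSC 14 (0.05755 to 0.101). Gp1ba, Gp1bb and Gp6, subunits of platelet receptors, were at 0 in at least 1 liver. Their part in the Vwf result was not tested.

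Plvap encodes the protein of the diaphragms of fenestrae and caveolae, found in capillaries and vessels of the portal tract. Plvap had 3283, 3441 and 3659 normalised reads in PBC livers 7, 8 and 9, 2910.4, 2171 and 2564 in PSC livers 11, 13 and 14, and 1968, 1598, 1224 and 2760.0 in controls 1 to 4. All PBC livers lay above every control and every PSC liver, and PSC livers overlapped the controls through control 4. Plvap was higher by 0.94 (SE 0.24, 95% interval 0.41 to 1.46, adjusted p = 0.0289) in PBC than in control livers. Its PSC over control value was 0.49 (SE 0.24, 95% interval -0.04 to 1.01, adjusted p = 0.199), and without both PBC 8 and control 4 it was 0.69 with an adjusted p of 0.0362. PBC over PSC gave 0.45 (95% interval -0.11 to 1.01, adjusted p = 0.368).

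The Plvap call in PBC ended with equal totals (adjusted p = 0.0925) and with only PBC and control livers fitted (0.074). Left out one at a time, controls 1, 2 and 3 gave 0.0535, 0.0546 and 0.0526, and PBC 7 and PBC 9 gave 0.0712 and 0.111.

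Cd34 encodes a sialomucin of vascular endothelium and blood progenitors that normal sinusoids carry little of. Cd34 had 196, 483 and 112 normalised reads in PBC livers 7, 8 and 9, 219, 336 and 369.8 in PSC livers 11, 13 and 14, and 137, 57.8, 174 and 109.7 in controls 1 to 4. Every PSC liver lay above every control, while PBC 9 lay within the control range. The log2 fold change was 0.98 (SE 0.47, 95% interval -0.02 to 1.99, adjusted p = 0.199) in PBC over control and 0.42 without PBC 8. In PSC over control it was 1.43 (SE 0.47, 95% interval 0.43 to 2.44, adjusted p = 0.0551), just outside the threshold.

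The test of Cd34 in PSC over control passed in some alternatives. The adjusted p was 0.0194 with DESeq2 and 0.0204 with only the compared groups fitted. Left out one at a time, control 3, PBC 8 and PBC 9 gave 0.0405, 0.0185 and 0.0348, and without both control 4 and PBC 8 it was 0.0307. Of 8 fibroblast markers, 4 were higher in PBC and 5 in PSC than in control livers, and their sum ran from 12341 to 23862 normalised reads in PBC, from 31246 to 38552 in PSC and from 12445 to 18744 in controls, so that PBC and control sums overlapped. Without PBC 8, 2 fibroblast markers were lower in PBC, and without both PBC 8 and control 4, 1 was. Of 8 blood progenitor markers, 6 were higher in PBC and 4 in PSC, or 2 in PSC without PSC 14. Their sum ran from 5052 to 16994 in PBC, from 1451 to 4043 in PSC and from 383 to 732 in controls. The 4 higher in PSC were Prtn3, Mpo, Elane and Cd48, while Kit, Flt3, Gata2 and Ms4a3 did not pass there. Prtn3 alone averaged 7327 ± 4707 normalised reads in PBC, 1621 ± 1357 in PSC and 35.6 ± 19.3 in control livers, a large part of the sum. Mpo, Elane and Ms4a3 of that list were at 0 in at least 1 liver. The part of these cells in the Cd34 values was not tested.

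To describe each gene relative to endothelium of the same liver, the mean log2 level of Pecam1 and Cdh5 was subtracted from its own. These differences are given with no test. They also move with Pecam1 and Cdh5 themselves, whose log2 fold changes in PSC over control were -0.35 and -0.48, neither passing the test. Lower Pecam1 and Cdh5 raise every PSC value on that scale. On that scale PSC and control livers did not overlap for 5 of the 8 remaining genes, beside 26.7% of all tested genes on the same scale. Stab1 averaged 2.32 ± 0.04 in PSC and 1.04 ± 0.69 in control livers (SD, n = 3 and 4), Vwf -0.91 ± 0.23 and -2.66 ± 0.44, Plvap 2.46 ± 0.17 and 1.56 ± 0.11, and Cd34 -0.60 ± 0.40 and -2.45 ± 0.90. Kdr averaged -3.13 ± 0.10 in PSC and -1.67 ± 0.28 in control livers and was the single one of the 5 on the lower side. Plvap overlapped between PSC and control livers before the subtraction. Fcgr2b, Stab2 and Lyve1 overlapped between PSC and control livers, with mean differences of 0.10, 0.59 and -0.20.

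In PBC livers all 8 overlapped the controls on that scale, on which 10.7% of all tested genes did not overlap. PBC 8 had the highest Pecam1 and Cdh5 of all livers, 1541 and 1533 normalised reads, which lowers its values on that scale. PBC 8 had Stab1 at 0.17, against 2.10 and 2.00 in PBC 7 and PBC 9, and Vwf at -3.15, against -0.74 and -1.71. Other livers stood apart for other genes, PBC 9 for Cd34 (-2.51, against -1.40 in PBC 7 and -1.67 in PBC 8) and PBC 7 for Lyve1 (-2.70, against -2.18 in PBC 8 and -2.16 in PBC 9). Control 4 likewise had the lowest control value of Stab1, 0.19. Plvap was at 1.16 in PBC 8, against 2.65 and 2.50 in PBC 7 and PBC 9, and between 1.45 and 1.70 in controls. Before the subtraction the Plvap reads of PBC 8, 3441, lay between those of PBC 7 (3283) and PBC 9 (3659).

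**Figure D3:**
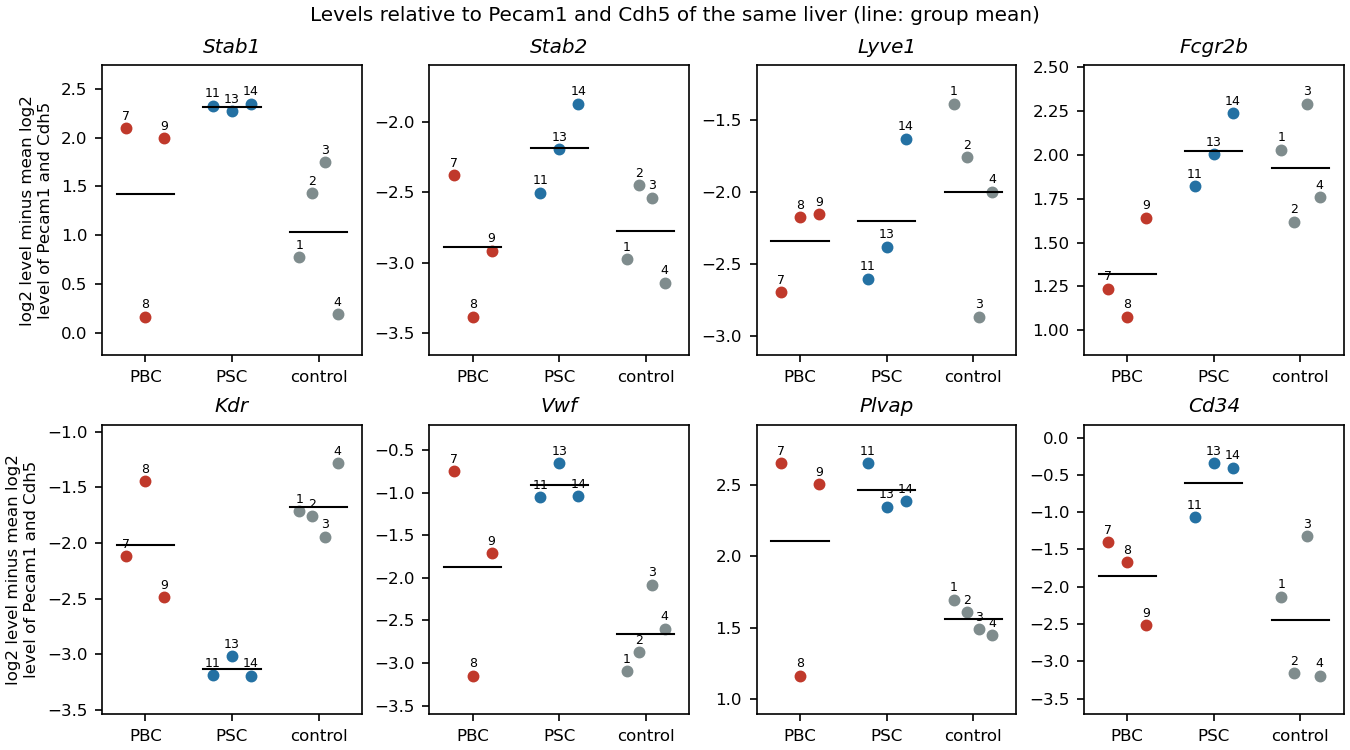
Log2 level of 8 genes minus the mean log2 level of Pecam1 and Cdh5 in the same liver, with PBC, PSC and control livers from left to right; points are livers and lines group means. In PSC livers Stab1, Vwf, Plvap and Cd34 lie above and Kdr below every control, and PBC 8 lies apart from PBC 7 and PBC 9 for Stab1, Vwf and Plvap. The levels subtracted, of Pecam1 and Cdh5, were themselves highest in PBC 8.

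Within groups the genes fell into different patterns across the 10 livers, which share their libraries and scaling. After each group mean was removed, Kdr went with Cdh5 (Pearson r = 0.97 over 10 livers) and with Pecam1 (r = 0.94), and Fcgr2b with Pecam1 (r = 0.92). Stab1 went against Kdr (r = -0.74) and Pecam1 (r = -0.69). PBC 8 and control 4 held the highest Kdr, Cdh5, Pecam1 and Fcgr2b of their groups, while Kdr hardly varied among PSC livers. These correlations therefore lean on PBC 8 and control 4, and they were not computed without them. Vwf had little relation to Stab1 (r = 0.06) on that measure, while r was 0.78 with the group means left in.

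The genes most like each member in log2 level over the 10 livers differed among the 10. Kdr was most like Gphn, which encodes gephyrin (Pearson r = 0.994), Gda (0.986) and Glt1d1 (0.966). Pecam1 and Cdh5 shared Elp3, an elongator subunit, among their nearest 3 (r = 0.949 and 0.964). Lyve1 was near Lama4, a vascular laminin chain (r = 0.931), Pecam1 near Oit3 (0.941) and Adgrf5 (0.937), and Fcgr2b nearest to Wwtr1, which encodes TAZ (0.971). Stab1 was nearest to Mia3 (0.963) and Nans (0.961), Plvap to Man2b1 (0.969) and Cd180 (0.963), Cd34 to Clec7a (0.963), Vwf to Xcl1 (0.953) and Stab2 to Hdac1 (0.847). These are the highest correlations over all other tested genes and rest on livers that also differ in group.

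Other genes of sinusoidal endothelium had mostly negative fold changes in PSC over control, in a list of 20 of which 19 were tested and Maf is not analysed here. Against control, 2 of 19 were lower in PSC and 1 was higher, beside 6.48% lower and 8.25% higher over all tested genes. Of the 19, 10 had an unadjusted p under 0.05 and 1 had a positive fold change, and the median was -0.68 against 0.06 over all tested genes. Ehd3, a membrane trafficking protein of sinusoidal endothelium, averaged 364 ± 85.0 normalised reads in PSC and 1271 ± 416 in control livers and was lower by -1.77 (adjusted p = 0.012). Dnase1l3, a secreted DNase of sinusoidal cells, averaged 659.6 ± 211.0 in PSC and 1665 ± 714 in control livers and was lower by -1.29 (adjusted p = 0.0283). Cd36, a fatty acid transporter that hepatocytes and macrophages also make, was higher by 1.54 (adjusted p = 0.0105), with 14184 ± 1118 in PSC and 5538 ± 3665 in control livers. Control 4 had 11033 normalised reads of Cd36, against 3603 to 3873 in the other controls.

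The count of sinusoidal genes lower in PSC moved with the processing and the livers kept. With all livers it was 2 with edgeR, 4 with DESeq2 and 1 with equal totals, and with only PSC and control livers fitted it was 6. It was 1 without control 1, control 4 or PSC 13, 0 without PSC 11, 4 without control 2 and 6 without PBC 8 or without both PBC 8 and control 4. Ehd3 lost its call without PSC 11 (adjusted p = 0.06). Dnase1l3 lost its call without control 1 (0.0685), control 4 (0.0618), PSC 11 (0.124) or PSC 13 (0.0782).

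In PBC over control, 0 of the 19 sinusoidal genes passed the test with limma, edgeR or DESeq2, 4 had an unadjusted p under 0.05, 6 had a positive fold change and the median was -0.35 against 0.01. Without PBC 8, 4 were lower, without control 2, 1 was lower, and without control 4, 1 was higher. Without both PBC 8 and control 4, 3 were lower and 1 was higher. PBC 8 had the highest PBC values of Ehd3 and Dnase1l3, 1737 and 2113 normalised reads, against 420.3 and 575.6 of Ehd3 and 898 and 1276 of Dnase1l3 in PBC 7 and PBC 9.

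**Figure D4:**
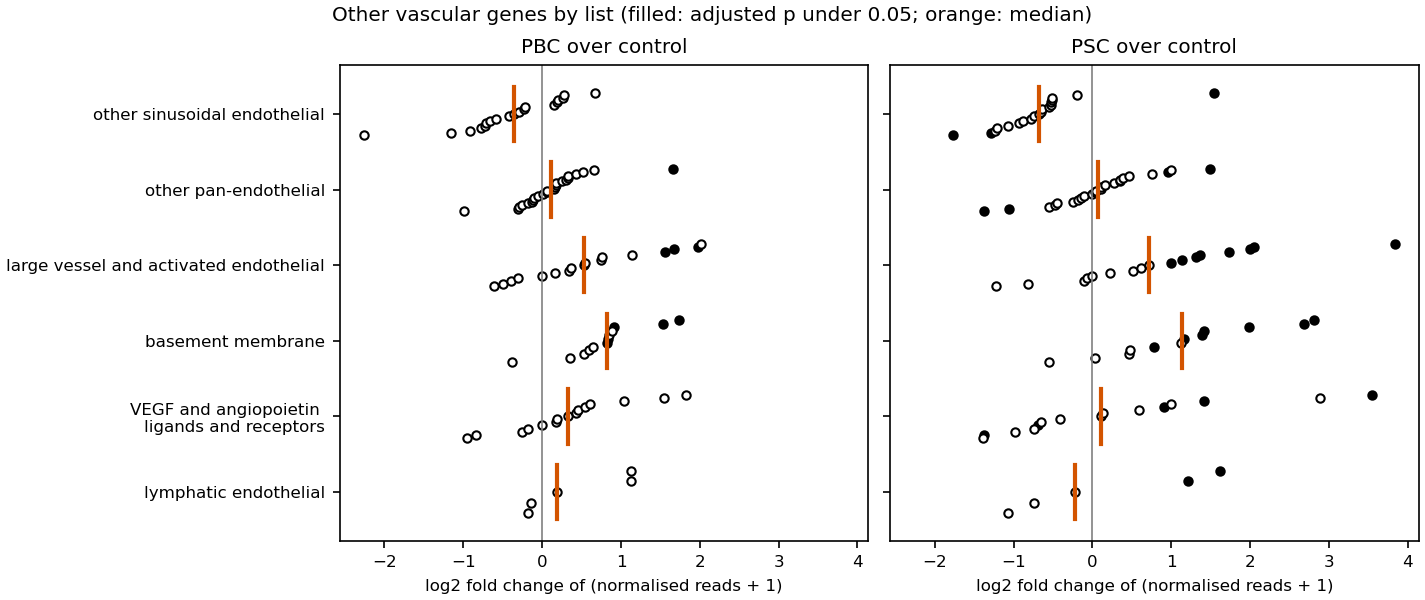
Log2 fold changes of (normalised reads + 1) in PBC and PSC over control for the other vascular genes, 1 row for each list. Points are genes, filled where the adjusted p was under 0.05, and the orange mark is the median of the list; the sinusoidal medians are -0.35 in PBC and -0.68 in PSC, and the basement membrane medians 0.83 and 1.14.

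Among 24 other general endothelial genes, 1 was higher and 0 were lower in PBC than in control livers, and 2 were higher and 2 lower in PSC. Over all tested genes 7.6% were higher and 2.34% lower in PBC, and 8.25% higher and 6.48% lower in PSC. The medians of the 24 genes were 0.11 and 0.08, near those over all tested genes. Lyl1, a transcription factor of blood and endothelial cells, averaged 211.2 ± 26.5 normalised reads in PBC, 191.6 ± 55.3 in PSC and 71.1 ± 29.4 in control livers. Its log2 fold change over control was 1.66 (adjusted p = 0.0145) in PBC, lost without PBC 9 (0.0693), and 1.49 (adjusted p = 0.0194) in PSC, lost without PSC 11 (0.0847) or PSC 14 (0.0994). Tek, the TIE2 receptor of angiopoietins, averaged 218 ± 22.1 in PSC and 571 ± 110.2 in control livers and was lower by -1.37 (adjusted p = 0.0127), lost without PSC 11 (0.0558). Erg, an ETS factor, averaged 82.5 ± 8.94 in PSC and 174 ± 21.2 in control livers and was lower by -1.06 (adjusted p = 0.0386). Sox17, a factor of arterial endothelium and bile ducts, was higher in PSC by 0.95 (adjusted p = 0.0486). Erg lost its call without control 1, 2 or 4 or any 1 of the PSC livers (adjusted p 0.0705 to 0.153), and Sox17 without control 1, 2 or 3, PBC 9 or any 1 of the PSC livers (0.0518 to 0.162). Sox17 also lost it with edgeR (0.0703), TMM scaling (0.0603), equal totals (0.099) and no filter on low values (0.0787), and Erg with equal totals (0.0855) and no filter (0.0654).

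Some genes of large vessels and activated endothelium were higher in both models. Of 17 tested, 3 were higher in PBC and 8 in PSC, beside 7.6% and 8.25% of all tested genes. The medians of the 17 were 0.53 and 0.72. With limma 0 were lower, while 1 was lower in PSC with DESeq2 and, with limma, without control 3, without PBC 8 or without both PBC 8 and control 4. Vcam1, a leukocyte adhesion molecule that activated endothelium, macrophages and bile duct cells can make, averaged 7585 ± 656 normalised reads in PBC, 6456 ± 1205 in PSC and 1938 ± 321 in control livers, higher by 1.98 (adjusted p = 7.78e-05) in PBC and by 1.73 (adjusted p = 0.000107) in PSC. Ackr1, the Duffy chemokine receptor of venules, averaged 376 ± 40.9 in PBC, 261 ± 51.7 in PSC and 123 ± 44.5 in control livers, higher by 1.67 (adjusted p = 0.00332) in PBC and by 1.13 (adjusted p = 0.022) in PSC. The PSC call of Ackr1 was lost without control 1 (0.0637), control 2 (0.0503), PSC 13 (0.0819) or PSC 14 (0.112). Icam1, another leukocyte adhesion molecule, averaged 1571 ± 875 in PBC, 1213 ± 104 in PSC and 513 ± 201 in control livers. Icam1 was higher in PBC by 1.55 (adjusted p = 0.0135), or 0.0566 with equal totals, and in PSC by 1.32 (adjusted p = 0.0232). Sele, E-selectin, averaged 56.9 ± 28.8 in PSC and 4.42 ± 5.53 in control livers, control 3 being at 0, and passed in PSC (adjusted p = 0.0122), but not without PSC 11 (0.0625) or PSC 14 (0.0799). Sox4, a developmental factor that bile duct cells also make, averaged 911 ± 268 in PSC and 228 ± 75.9 in control livers and was higher by 2.00 (adjusted p = 0.00231). The count of 8 in PSC was 4 without control 1 or control 2, 3 without PSC 11 or PSC 13 and 2 without PSC 14.

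Of 12 basement membrane genes, 5 were higher in PBC and 7 in PSC, beside 7.6% and 8.25% of all tested genes. None of the 12 was lower, 11 had a positive fold change in each model, and the medians were 0.83 and 1.14. Col4a1 and Col4a2 encode the collagen IV chains of most basement membranes. Col4a1 averaged 705 ± 2.04 normalised reads in PBC, 1586 ± 287 in PSC and 243 ± 21.0 in control livers, higher by 1.54 (adjusted p = 0.000423) in PBC and by 2.69 (adjusted p = 3.6e-06) in PSC. Col4a2 averaged 1833 ± 309.7 in PBC, 3837 ± 410.3 in PSC and 552 ± 109.3 in control livers, higher by 1.74 (adjusted p = 0.000273) in PBC and by 2.81 (adjusted p = 3.6e-06) in PSC. None of these 4 calls was lost when any 1 liver was left out. Lamb1 and Lamb2, laminin chains, were higher in PSC by 1.41 (adjusted p = 0.00145) and 1.16 (adjusted p = 0.00686). In PBC, Col18a1, a basement membrane collagen, was higher by 0.91 (adjusted p = 0.015). It lost that call without PBC 7 (0.058) or PBC 9 (0.0887) and with only PBC and control livers fitted (0.0552). Col18a1 averaged 56990 ± 13210 normalised reads in PBC and 29970 ± 4272 in control livers, far above Col4a1, and which cells made it was not tested. Lamb1 was higher there by 0.83 (adjusted p = 0.0317), lost without control 1 or 4, PBC 7 or 9, or PSC 13 or 14 (0.0527 to 0.114). The PBC count was 3 without control 1, PSC 13 or PSC 14 and 2 without PBC 7 or PBC 9. With equal totals it was 3, and with only PBC and control livers fitted 2. The counts and sums of fibroblast markers stand beside Cd34 above, and the part of fibroblasts in these values was not tested.

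Between the models, Col4a1 was lower in PBC than in PSC by -1.15 (adjusted p = 0.0117) and Col4a2 by -1.07 (adjusted p = 0.0234). Col4a1 lost that call without PSC 11 (0.0574) or PSC 14 (0.0917). Col4a2 lost it without PBC 7 (0.0545), PBC 8 (0.0593), PSC 11 (0.0685), PSC 13 (0.0896) or PSC 14 (0.144).

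Ligands and receptors of the VEGF and angiopoietin families were tested for 15 of 16 genes, Aplnr not being analysed here. In PBC over control 0 passed with limma, edgeR or DESeq2, 3 had an unadjusted p under 0.05 and the median was 0.32. There 1 was lower without PBC 8, and 1 lower and 1 higher without both PBC 8 and control 4. In PSC livers 3 were higher and 2 lower than in controls, with a median of 0.11, beside 8.25% higher and 6.48% lower over all tested genes. Vegfa, the main ligand of the receptor that Kdr encodes, averaged 7489 ± 1362 normalised reads in PSC and 12271 ± 2813 in control livers. Vegfa was lower by -0.70 (adjusted p = 0.0455), the other lower gene being Tek. The Vegfa call was lost without control 1, 2 or 3, PBC 7 or 9, or any 1 of the PSC livers (0.0547 to 0.214). It also ended with equal totals (0.0583), no filter on low values (0.0667) and only the compared groups fitted (0.0543). Vegfc, a ligand of lymphatic growth, averaged 304.8 ± 35.8 in PSC and 165 ± 46.0 in control livers and was higher by 0.91 (adjusted p = 0.0313). Pgf, placental growth factor, was higher with 18.8, 37.2 and 69.0 in PSC 11, 13 and 14, against 0, 0, 15.3 and 5.55 in controls 1 to 4 (adjusted p = 0.0334), and Esm1, a marker of tip cells, was higher by 1.42 (adjusted p = 0.0382). Vegfc and Esm1 lost their calls with edgeR (0.0503 and 0.0509) and with equal totals (0.0762 and 0.0794). The count of higher genes was 1 without control 1, 2 or 3 and 0 without PSC 11, 13 or 14. The count of lower genes was 1 without control 1, 2 or 3, PBC 7 or 9, or PSC 13 or 14, and 0 without PSC 11. Between the models, Nrp1, a VEGF co-receptor, was higher in PBC than in PSC by 0.84 (adjusted p = 0.0448), lost without control 1 (0.0651), PBC 7 (0.0931), PBC 9 (0.125), PSC 11 (0.137), PSC 13 (0.173) or PSC 14 (0.156).

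Of 6 lymphatic markers, Mmrn1 was at 0 in every liver and 5 were tested, beside Lyve1 above. In PBC over control 0 passed with limma or edgeR and 1 with DESeq2, and 2 had an unadjusted p under 0.05. In PSC over control 2 were higher, beside 8.25% of all tested genes. Only these 2 of the 5 had a positive fold change there, and the median was -0.22 against 0.06 over all tested genes. Pdpn, podoplanin, which bile duct cells and fibroblasts also make, averaged 405 ± 120.5 normalised reads in PSC and 148 ± 90.4 in control livers (1.62, adjusted p = 0.03). Ccl21a, a chemokine of lymphatic vessels, averaged 218 ± 67.2 in PSC and 92.0 ± 21.2 in control livers (1.21, adjusted p = 0.0413). In PBC livers Pdpn averaged 293 ± 113 and Ccl21a 218 ± 106, so that the mean of Ccl21a was close to that in PSC. The PSC count of higher genes was 1 without control 1. It was 0 without control 2, control 4, PSC 13 or PSC 14, or without both PBC 8 and control 4. Without control 3, 1 was lower in PSC.

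The 5 tested hepatocyte markers summed to between 8.68e+06 and 1.28e+07 normalised reads in PBC livers, 5.74e+06 and 6.88e+06 in PSC livers and 8.29e+06 and 9.46e+06 in controls, and 1 was higher in PBC (Fgb) and 1 lower in PSC (Hnf4a) than in control livers. Fgb (adjusted p = 0.0311) lost its call without control 1, 3 or 4, PBC 7 or PBC 9 (0.058 to 0.126). It also lost it with no filter on low values (0.144) and only PBC and control livers fitted (0.0854). Hnf4a (adjusted p = 0.0488) lost its call without control 1, 2 or 4, PBC 9 or any 1 of the PSC livers (0.0557 to 0.174). It also lost it with edgeR (0.0591), TMM scaling (0.0551), equal totals (0.102), no filter (0.064) and a pseudocount of 0.5 (0.051). Of the 5 markers, 2 were lower in PSC with edgeR and 3 with DESeq2. The part of hepatocytes in the endothelial results was not tested.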

How the data were processed

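Bulk RNA sequencing of 10 mouse livers was analysed. Per the labels' protocols, RNA with RIN above 8 went into TruSeq stranded poly(A) libraries, read as pairs of 75 bases on a NextSeq. STAR 2.4.0 on mm10, with SAMtools, Picard, FastQC and DESeq2, is named per the submitters' processing notes. Gene models are those of FASTDB, per the file headers. The sources used here give neither the counting tool nor its use of strand, and Stab1, Stab2, Fcgr2b and Cd34 share 112 to 155 exon bases with a gene on the opposite strand.

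The deposited signal holds, for each gene model, reads that the authors normalised with DESeq2. Within each library every value below 1000 reads was a whole multiple of 1 step (0.938 to 2.55 per read, tolerance 0.1, 100% whole), which gave the reads back. Libraries correlated at r = 0.920 to 0.976. Groups came from the labels.

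limma 3.58.1 (R 4.3.3) with an intensity trend was fitted to log2(value + 1) of all 10 libraries for the 18390 genes that reached 10 normalised reads in 3 or more libraries, with Benjamini-Hochberg adjustment at 0.05. Intervals at 95% are from that fit. Alternatives were pseudocounts of 0.5 and 5, no filter, a filter of 50, TMM scaling, equal library totals, edgeR 4.0.16 and DESeq2 1.42.0 on recovered reads, the compared groups alone, and each library left out. Leaving out control 4 and PBC 8 together was chosen after seeing the data. The script was tested on simulated data. Exon lengths are from GENCODE vM21, promoters from RefSeq. Up to 4 called genes with the smallest adjusted p are named from each vascular list, and the 3 most correlated genes for each of the 10. A listed gene that met a rule for naming is not reported here. Pf4, Ppbp, Gp9, Fgb, Hnf4a, C1qa, C1qb, C1qc, Clec4f, Vsig4, Cd5l, Adgre1, Csf1r, Prtn3 and Cd48 were named after their values were seen. The 10 genes and the lists were chosen with earlier results of these data known.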

Additional observations from a re-analysis of the deposited data

Results flagged for a closer look

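Of 60 listed genes whose controls were examined with Dixon's test, which by chance picks about 1 in 20 groups, 3 had a control 4 value far from the other 3 controls. They were Cd36 with 1.103e+04 normalised reads, Sox4 with 341.5 and Lamb2 with 295.7. None of the 10 endothelial genes was picked.

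Some further listed genes differed between the models, each tested as PBC over PSC with an adjusted p under 0.05 in limma. Among vascular genes the log2 fold change was -1.64 for Sox4, a factor of activated endothelium and other cells, -1.15 for Col4a1, -1.07 for Col4a2 and 0.84 for Nrp1. Kupffer cell genes were higher in PBC, Marco by 3.05 and Timd4 by 1.93. B cell genes were higher in PBC, Cd22 by 1.40, Cd79a by 2.27 and Cd79b by 1.64. Myeloid progenitor genes were higher in PBC, Mpo by 4.69, Elane by 3.96 and Ms4a3 by 5.64. Fibroblast genes were lower in PBC, with -1.99 for Col1a2, -2.43 for Col1a1, -1.82 for Dpt and -1.79 for Lum.

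Most of these calls were lost when 1 liver was left out. Beside Col4a1, Col4a2 and Nrp1, given above, Sox4 lost its call without PBC 7 or 9 or any 1 of the PSC livers (0.077 to 0.133), with equal totals (0.0572) and with edgeR (0.0505). Cd22 lost it without control 2, any 1 of the PBC livers or any 1 of the PSC livers (0.0515 to 0.23), and Cd79b without PBC 7 or 9 or any 1 of the PSC livers (0.0633 to 0.0999). Elane lost it without PBC 9 or any 1 of the PSC livers (0.0633 to 0.071). Timd4 (0.0736 and 0.0686), Lum (0.055 and 0.0631) and Dpt (0.0757 and 0.0729) lost it without PSC 13 or PSC 14, and Col1a1 without PSC 14 (0.0729).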

How the results depend on the processing

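No paired analysis was possible because the groups share no replicate numbers. Of 600 values of the 10 genes under alternatives, 532 kept direction and call, 37 lost the call, 8 gained it and 23 changed sign, none of these 23 being called. Of 1655 values of named list genes, 1469 were the same, 186 lost the call and 0 changed sign. The causes were not tested, except that fewer libraries enter when 1 is left out.

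PBC over control gave 1398 genes higher and 430 lower. Equal totals gave 853 higher, only the compared groups 752 higher and 89 lower, DESeq2 913 lower, and both control 4 and PBC 8 left out 1396 lower. Leaving out 1 library gave 673 to 1795 higher and 63 to 1569 lower. The 3 endothelial genes higher were 1 with equal totals, 0 with only the compared groups and 0 to 3 with 1 library left out, with 0 lower throughout. With only the compared groups the adjusted p was 0.0784 for Stab1, 0.108 for Vwf and 0.074 for Plvap. Equal totals moved the median of all genes from 0.01 to -0.12 in this comparison, and all other shifts were under 0.1.

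PSC over control gave 1518 higher and 1192 lower. Genes lower were 669 with equal totals, 1929 with DESeq2 and 1853 with only the compared groups. Leaving out 1 library gave 680 to 1911 higher and 245 to 1902 lower. Endothelial genes higher were 4 with control 4 and PBC 8 left out and 0 to 3 with 1 left out, and those lower were 0 with equal totals and 0 to 1 with 1 left out.

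PBC over PSC gave 204 higher and 208 lower, against 128 and 228 with equal totals and 590 and 623 with DESeq2, where 1 endothelial gene was higher. Leaving out 1 library gave 61 to 260 higher and 43 to 303 lower, with 0 endothelial genes either way.

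Signs changed in PBC over control for Lyve1 (-0.076 with equal totals, -0.26 with both left out, and -0.50 to 0.54 with 1 left out), Kdr (-0.077, -0.33, and -0.70 to 0.44), Fcgr2b (-0.56 to 0.14 with 1 left out), Pecam1 (-0.12 to 0.46) and Cdh5 (-0.037 to 0.94). In PSC over control Stab2 ran from -0.037 to 0.32. In PBC over PSC, with both left out and over 1 left out, Stab1 was 0.069 and -0.22 to 0.069, Stab2 -0.12 and -0.12 to 0.31, Fcgr2b -0.24 and -0.24 to 0.45, and Vwf 0.024 and -0.40 to 0.024, while Cd34 ran from -1.01 to 0.033 with 1 left out.

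With 3 or 4 livers a group, the 95% intervals of Lyve1, Kdr and Cd34 each spanned more than 2 log2 units in every comparison.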
